A study of Mus musculus with 80 samples.

Results

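The 645 barcoded reporters described here sit on mouse chromosome 4 and were measured in pools A, B, C and D of embryonic stem cells. They were selected on position and DNA alone, as the chromosome 4 reporters of all pools with at least 10 DNA counts in every DNA library of their pool, out of 653 listed on the chromosome and out of 10785 that pass the same minimum over the genome. Pool A held 141 of them, pool B 123, pool C 197 and pool D 184. The chromosome itself was chosen by its RNA over DNA values at dox 0, which differ widely along its length, so the contrast between its parts is given below as a description, without a test.

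The host was the mouse embryonic stem cell line EBRTcH3, whose ROSA26 locus drives the tetracycline-controlled transactivator (tTA), grown with leukemia inhibitory factor, PD0325901 (a MEK inhibitor) and CHIR99021 (a GSK-3 inhibitor). All groups share these conditions, the tTA allele and the piggyBac reporters, and all came from cells sorted for low eGFP soon after transfection. Sister cultures of each pool, named replicates 1 and 2, were given doxycycline (dox) at 0, 0.01, 0.1 or 100 ng/ml for 72 h, after which RNA and genomic DNA were taken from each. Both replicates descend from 1 pool, so p-values reflect how far sister cultures and their libraries vary, and the labels call these technical replicates. An mPGK promoter is mentioned in the growth and treatment protocols although titles and plasmid say tet-Off; the construct is called tet-Off here, after the titles. Barcode counts hold no marker genes, so the identity of the cells could not be checked.

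In a tet-Off system, tTA bound to its operator activates the promoter beside it, and doxycycline makes tTA let go. piggyBac is a DNA transposon that inserts at TTAA sites throughout the genome, and TRIP is the assay that reads many such insertions at once, each by its own barcode. A cassette of the same design is thereby placed in many chromatin settings, and the RNA of a barcode divided by its DNA gives the output per integrated copy. Large chromosome domains rich in active genes are generally known to favour reporter expression, and gene-poor domains at the nuclear lamina to dampen it.

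Each reporter is known only by its barcode and its insertion point (mm9, the build named in the submitters' processing notes). The barcodes below belong to the reporters at the extremes of chromosome 4, first the pair with the most RNA per DNA at dox 100, then the highest middle reporter at that dose, the highest and the lowest reporter at dox 0, and 2 neighbours with very different output. All bases are in capitals because the whole run identifies the reporter.
Pool B, 141628134, plus strand: GTTTCTCCCGACGTAC
Pool C, 141627980, plus strand: AATCATGAAGACTCTC
Pool C, 55491383, plus strand: TATTCGTCGCTCGGAA
Pool A, 137026173, minus strand: ACACTAAAGCAAAACA
Pool C, 76933830, plus strand: CACTGAAGAAAAATAA
Pool D, 104826146, plus strand: TTTTCAGAAGCACCCG
Pool C, 104826829, minus strand: TCTAATCAAAAAATAT
Of the 645 barcodes, 634 were 16 bases long. Their GC content averaged 40.1% ± 12.1 in the distal part, 41.8% ± 11.7 in the middle and 40.4% ± 11.2 in the proximal part (SD over 306, 185 and 154 reporters), and over the 645 reporters it had a Pearson correlation of −0.02 with the level at dox 0. The barcodes of 49 members were also listed in another pool, 0 of them within 10 kb of the same place, so these are different insertions.

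Libraries held 729108 to 1840870 RNA counts and 923846 to 1571280 DNA counts. The median chromosome 4 reporter had 189 to 401 RNA counts per library at dox 0, 143 to 343 at dox 0.01, 31 to 124 at dox 0.1 and 0 to 22 at dox 100, whereas its DNA median stayed between 229 and 577. Counts are PCR reads without molecular identifiers, so any floor covers counting error only. A level below is log2 of the RNA share over the DNA share of a library (1 count added to each), minus the mean of that quantity over all reporters of the pool, averaged over both replicates. A level of 0 is thus the average reporter of the same pool at the same dose, and each step of 1 is a factor of 2. Because each dose is centred on itself, a fall shared by all reporters does not show in levels.

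Members ran from position 3169309 to 155567838, at 4.23 per Mb, and the widest stretch without one was 3.05 Mb, between 66943532 and 69994519. The 154 proximal reporters lie below 50 Mb, the 185 middle reporters between 50 and 100 Mb, and the 306 distal reporters from 100 Mb on. Insertions were densest in the distal part, at 5.55 per Mb, against 3.85 in the middle and 3.30 in the proximal part. The 306 reporters on the plus strand and the 339 on the minus strand had mean levels of 0.09 and 0.07 at dox 0.

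The mean log2 level was highest in the distal part at every dose and in every pool. It was 0.93 ± 0.35 at dox 0, 1.22 ± 0.36 at dox 0.01, 1.67 ± 0.59 at dox 0.1 and 1.20 ± 0.49 at dox 100 (SD, n = 4 pools). Middle reporters stood at −0.53 ± 0.48, −0.52 ± 0.46, −0.40 ± 0.54 and −0.42 ± 0.40 at the same doses. Proximal reporters were lower still at −0.76 ± 0.24, −0.82 ± 0.19, −0.95 ± 0.42 and −0.61 ± 0.25, although the middle exceeded the proximal part in only 2 of 4 pools at dox 0. The distal mean minus the middle mean was 1.46 ± 0.47 at dox 0, 1.74 ± 0.40 at dox 0.01, 2.06 ± 0.62 at dox 0.1 and 1.62 ± 0.71 at dox 100, above 0 in 4 of 4 pools each time. By pool the difference at dox 0 was 1.56 in A, 0.77 in B, 1.77 in C and 1.73 in D. Chromosome 4 as a whole minus the rest of the genome was 0.11 ± 0.27 at dox 0, 0.24 ± 0.27 at dox 0.01, 0.44 ± 0.23 at dox 0.1 and 0.31 ± 0.21 at dox 100, above 0 in 3 of 4 pools at dox 0 and in 4 of 4 at the other doses. The parts differ in DNA far less than in RNA. Median DNA counts per library were 349.8, 323.4 and 321.1 in the distal, middle and proximal parts, while the median RNA summed over both dox 0 libraries was 937.5, 327 and 253.5.

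**Figure D1:**
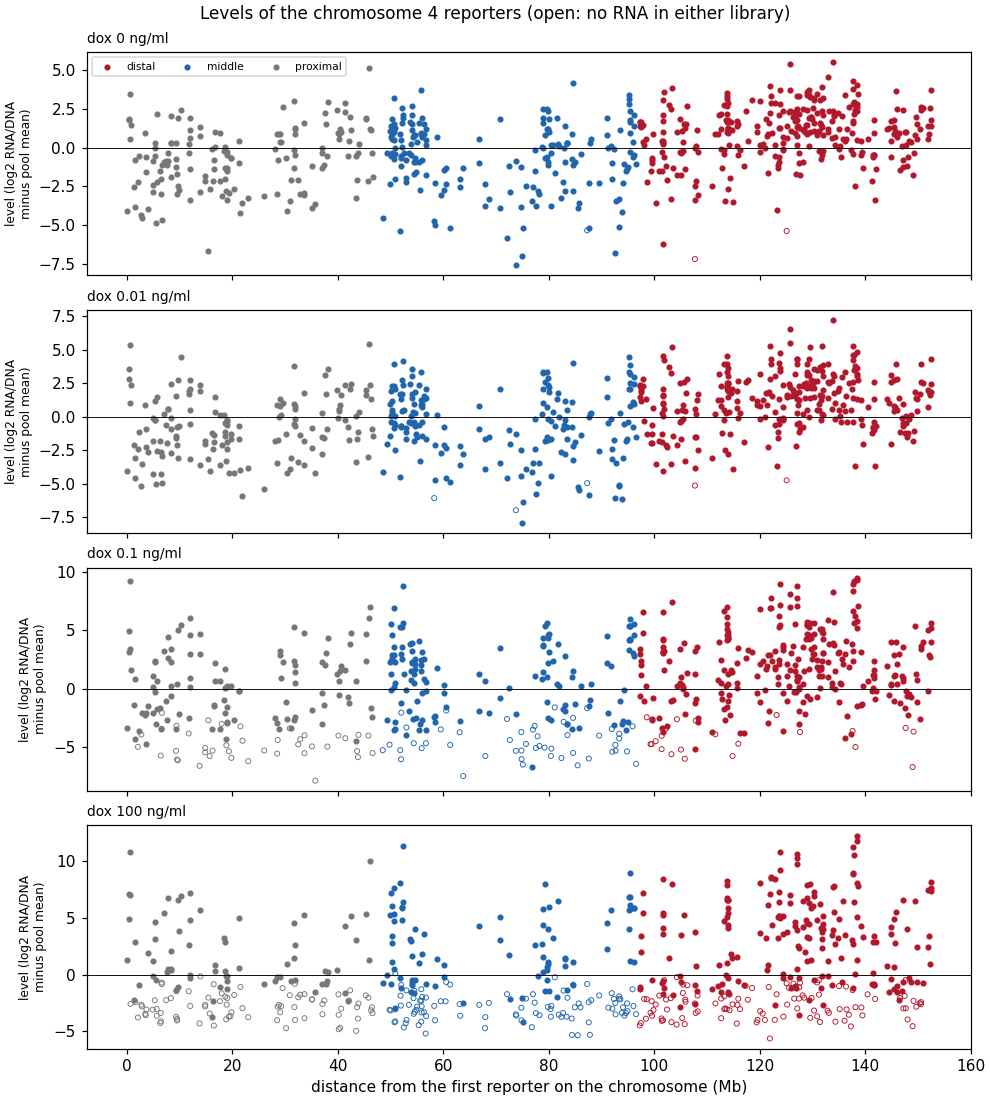
Level of each of the 645 reporters against its distance from the first reporter on chromosome 4 (Mb), 1 panel per doxycycline dose, coloured by part; open circles had no RNA in either library of the dose. At dox 0 the distal levels average 0.93 and the middle and proximal levels −0.53 and −0.76. At dox 100, 284 reporters have no RNA, 209 have RNA in both libraries, and levels reach 12.23.

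**Figure D2:**
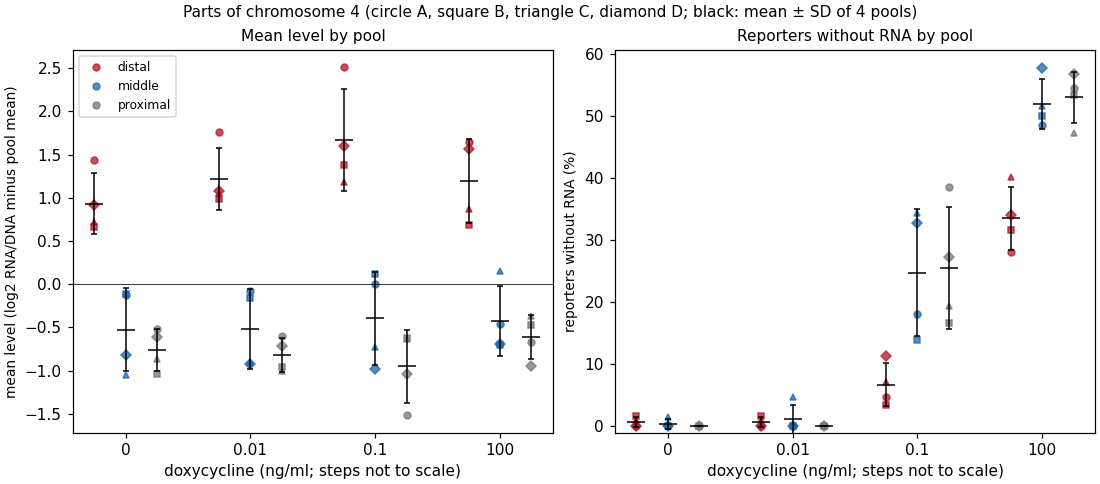
Mean level (left) and percent of reporters without RNA in either library (right) for the distal, middle and proximal parts at each dose; symbols are the 4 pools and black bars their mean ± SD. The distal means lie above those of both other parts in every pool at every dose, and at dox 0.1 and 100 the distal part has the smallest percent without RNA.

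Reporters that lost all RNA were spread unevenly over the chromosome. At dox 0, 3 of 645 had no RNA count in either library and at dox 0.01, 5 had none, whereas 113 had none at dox 0.1 and 284 at dox 100. At dox 0.1 the share without RNA was 6.69% ± 3.48 in the distal part, 24.8% ± 10.3 in the middle and 25.5% ± 9.84 in the proximal part (SD, n = 4 pools). The distal share was the smallest in each pool. At dox 100 the shares were 33.5% ± 5.10, 51.9% ± 4.04 and 53.0% ± 4.10 in the same order, and the distal pools, at 28.1% to 40.2%, did not overlap the middle pools, at 48.5% to 57.7%. Chromosome 4 as a whole had 43.7% ± 2.38 without RNA at dox 100, against 48.3% ± 2.27 for the rest of the genome.

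Among reporters with RNA in both libraries of the dose, a restriction made after the values were seen and one that removes low levels, more of them from the middle, the distal minus middle difference was 1.44 ± 0.38 at dox 0 and 1.47 ± 0.27 at dox 0.01. It was 0.39 ± 0.47 at dox 0.1 and 0.53 ± 0.95 at dox 100, above 0 in 3 of 4 pools at each of these doses. Distal reporters had more RNA at dox 0, as given above, and the part of this in their smaller share without RNA was not tested. In counts, distal reporters took up 1.68 ± 0.32 times their share of DNA at dox 0, 1.96 ± 0.39 times at dox 0.01, 2.68 ± 0.68 times at dox 0.1 and 2.32 ± 0.77 times at dox 100. Middle reporters took up 0.77 ± 0.16, 0.81 ± 0.21, 0.72 ± 0.08 and 0.55 ± 0.30 times theirs, and proximal reporters 0.71 ± 0.23, 0.69 ± 0.22, 0.95 ± 0.36 and 1.32 ± 1.46 times theirs. At dox 100 the proximal ratio ran from 0.186 in pool D to 3.45 in pool B, where it exceeded the distal ratio of 3.35. A few reporters carried these sums. The 5 with the most RNA in each pool held 24.4% ± 5.32 of the chromosome 4 RNA counts at dox 0 and 66.7% ± 15.4 at dox 100.

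Windows of 5 Mb show where the contrast lies. Of 32 windows with members, 27 held at least 10, and at dox 0 the mean level was above 0 in 10 of the 11 such distal windows but in 4 of the 16 proximal and middle ones. The distal exception, from 110 to 115 Mb, averaged −1.71 over 11 reporters. Among the 27, mean levels were lowest in the window from 75000001 to 80000000, at −3.77 over 11 reporters, most of them in pools C and D. By pool its mean was −0.87 in A, −3.47 in B, −3.94 in C and −4.48 in D. Next came 60 to 65 Mb at −2.73 over 10 and 5 to 10 Mb at −1.83 over 22. At the other end, the window from 130000001 to 135000000 reached 1.63 over 50 reporters, 135 to 140 Mb reached 1.46 over 29 and 125 to 130 Mb reached 1.19 over 36. Not every middle window was low. The best filled of them, from 55 to 60 Mb with 48 reporters, averaged 0.22. The SD of the 27 window means was 1.31 and their range 5.39 at dox 0, both ranking 1 among 20 chromosomes. Chromosome 1 came next and close behind, at 1.26 and 5.27. Because chromosome 4 was chosen for its spread of values at dox 0, this rank restates the choice. At dox 100 the SD of 1.42 ranked 5.

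**Figure D3:**
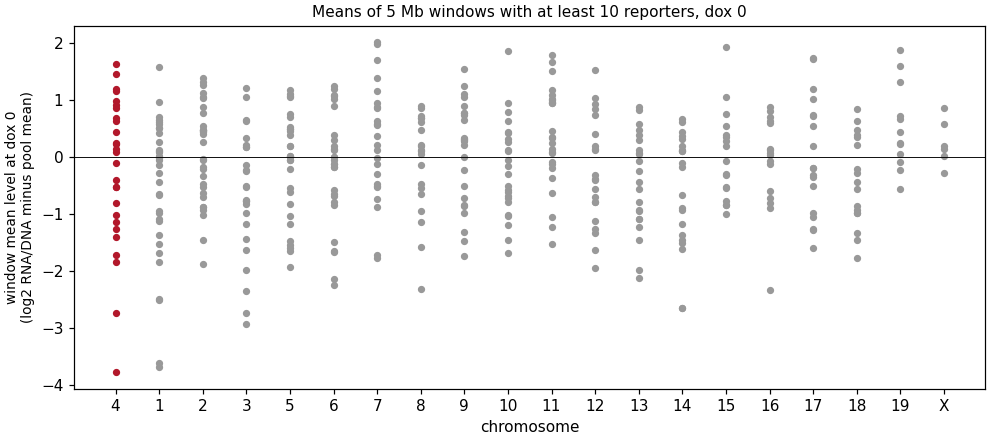
Mean level at dox 0 of every 5 Mb window with at least 10 reporters, 1 column of points per chromosome, chromosome 4 in red on the left. The chromosome 4 windows span −3.77 to 1.63, a range of 5.39, and those of chromosome 1 span 5.27.

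The 11 reporters of the lowest window were integrated and well counted in DNA, at 95.6 to 1321 counts per library with a median of 453.8, yet gave little RNA. Summed over both libraries, they had 1 to 378 RNA counts at dox 0, with a median of 49. All 11 levels were below 0, from −7.56 to −0.87. At dox 100, 7 of the 11 had no RNA in either library, and 7 of the 11 were lower than at dox 0 by the edgeR test described below, against 50.4% of all reporters of the genome. None was higher. Without dox 0 replicate 1 the count of lower reporters was 4, and without dox 0 replicate 2 it was 3. The count of higher ones was 2 with the DESeq2 Wald test, 1 with DESeq2 size factors and 1 without dox 100 replicate 2. The window was picked as the lowest at dox 0, the baseline of this contrast, so nothing is read from the count. The reporter at 75659512 in pool C departed from its neighbours. It had 67 and 54 RNA counts at dox 100 against 171 and 176 at dox 0, and its log2 change of 0.08 ± 0.48 (SE) did not pass the test (edgeR quasi-likelihood test, Benjamini-Hochberg adjusted p = 0.903). Its level at dox 100 was 1.74, the only one of the window above 0.

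The levels of the 50 reporters of the highest window spread out at dox 100. All of them had RNA in both libraries at dox 0, with summed counts of 71 to 10971 and a median of 1374.5, and 43 of 50 levels were above 0. At dox 100, 14 had no RNA and 27 had RNA in both libraries, with summed counts up to 64511. The SD of their levels was 4.11 at dox 100 and 1.43 at dox 0, against 3.71 and 2.05 over all reporters of the genome. In the lowest window it was 1.76 and 2.35, with 7 of 11 reporters without RNA at dox 100. By the test, 7 of the 50 were higher at dox 100 than at dox 0 and 20 were lower, against 10.9% and 50.4% of all reporters. There were 16 higher and 17 lower with the DESeq2 Wald test, 13 and 18 with DESeq2 size factors and 4 and 25 with library totals. This window too was picked on its levels at dox 0. At the distal tip, the 7 reporters beyond 155 Mb, in 3 pools, all kept RNA at dox 100, 6 of them in both libraries. By the test 3 were higher than at dox 0 and 0 lower. Their mean level was 5.35 at dox 100 against 1.76 at dox 0, each dose centred on itself. In the first window, below 5 Mb, 7 of 9 reporters kept RNA, and the mean level was 2.96 at dox 100 against −0.23 at dox 0.

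The change of RNA over DNA with dose was tested for every reporter of the genome, pool by pool, with edgeR's quasi-likelihood test at a Benjamini-Hochberg adjusted p of 0.05. The dox 0 libraries that the choice of the chromosome drew on are the baseline of each contrast, so the counts for its members are descriptions set beside those of the genome. Since libraries are scaled to each other, "higher" and "lower" are relative to that scaling. They do not compare a reporter with the median reporter, whose own fitted log2 change at dox 100 was −4.12. On chromosome 4, 296 of 645 reporters (45.9%) were lower at dox 100 than at dox 0, against 50.4% of all 10785, and 76 (11.8%) were higher, against 10.9% of all. In either direction these were 372 members (57.7%), against 61.3% of all, so the shares are near those of the genome. Of the 296 lower reporters, 249 had no RNA in either dox 100 library, while all 76 higher ones had RNA in both. The median fitted log2 change on chromosome 4 was −2.88, against −4.12 over all reporters. With reporters without RNA at dox 100 put at the bound that 3 counts over both libraries allow, these medians were −1.81 and −2.23. By part, 128 of 306 distal (41.8%), 88 of 185 middle (47.6%) and 80 of 154 proximal reporters (51.9%) were lower, and 47 (15.4%), 16 (8.65%) and 13 (8.44%) were higher. The distal share of higher reporters was above the middle share in pools A, B and D, at 20.3% and 0% in A, 12.3% and 8.33% in B and 18.2% and 7.69% in D, but not in C, at 11.3% and 14.1%. With library totals in place of TMM scaling, 355 were lower and 45 higher on the chromosome, 25 of these in the distal part, 11 in the middle and 9 in the proximal part. The DESeq2 Wald test called 73 distal, 30 middle and 21 proximal reporters higher, and DESeq2 size factors gave 63, 26 and 16. In edgeR, without either dox 0 replicate the count of lower reporters was 233 or 227. Shares of all reporters called are given for the edgeR fit with TMM scaling only. Counts under other settings therefore show how the calls move and are not set against the genome.

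At dox 0.1, 114 reporters (17.7%) were lower than at dox 0, against 19.8% of all, and 75 (11.6%) were higher, against 9.07% of all. In either direction these were 189 members (29.3%), against 28.9% of all. Of the 114, 80 had no RNA at dox 0.1. The median fitted log2 change was −0.54, against −0.80 over all reporters, and −0.35 and −0.68 with the reporters without RNA at their bound. The split turns on the scaling. Higher reporters made up 39.7% of the calls with TMM scaling, 18.8% with library totals (41 higher, 177 lower) and 52.3% with DESeq2 size factors (104 higher, 95 lower). Leaving out dox 0 replicate 1 or 2 left 119 or 112 calls in place of 189. In the distal part 40 of 306 (13.1%) were lower and 46 (15.0%) higher, turned to 70 lower and 25 higher by library totals, in the middle 38 of 185 (20.5%) and 15 (8.11%), and in the proximal part 36 of 154 (23.4%) and 14 (9.09%). At dox 0.01 no chromosome 4 reporter passed edgeR's test, against 0.0185% of all reporters (2). At an unadjusted p under 0.05 there were 36 of the 645, a number near what chance gives at that threshold, and the genome was not counted at it. With replicate as a block, edgeR called 1, at 3761472 in pool A, higher (log2 change 1.73, adjusted p = 0.0406), and so it did with DESeq2 size factors (1.98, adjusted p = 0.0315). The DESeq2 Wald test called 22 chromosome 4 reporters higher at dox 0.01 and 1 lower, at 117033907 in pool A. The share of all reporters called by that test was not taken, so its count is not read as particular to the chromosome.

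The highest levels at dox 100 belonged to a pair of insertions 154 bp apart on the same strand, in different pools. At 141628134 in pool B, RNA was 33291 and 41739 counts at dox 100, against 3780 and 3971 at dox 0, with 356 and 290 DNA counts, against 376 and 388. Its level at dox 100 was 12.23, and its log2 change 5.58 ± 0.32 (SE; edgeR, adjusted p = 7.49e-07). At 141627980 in pool C, RNA was 14026 and 10962 counts at dox 100, against 983 and 989 at dox 0. Its level was 11.75 and its change 6.00 ± 0.64 (edgeR, adjusted p = 1.56e-05). In both reporters, both dox 100 counts exceeded both dox 0 counts. Counts are shares of a library, and RNA per cell was not measured.

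Around this pair, 17 members lie between 140699150 and 141728440, a stretch chosen after its values were seen. At dox 100, 12 of them had RNA in both libraries and 2 had none, 8 were higher and 5 lower than at dox 0, against 10.9% and 50.4% of all reporters. With library totals 5 were higher and 7 lower. The mean level of the 17 was 5.44 ± 5.01 at dox 100 against 2.10 ± 1.72 at dox 0 (SD over reporters). The 2 members without RNA at dox 100 lay singly among reporters with RNA. At 141304851 in pool D, RNA was 0 and 0 counts at dox 100 against 36 and 48 at dox 0, in contrast to 141617157 in the same pool, with 1199 and 1391 counts at dox 100 against 1055 and 1033 at dox 0.

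Of the 8 highest reporters at dox 100, 6 were distal, 1 was middle and 1 proximal. They were chosen for their level at dox 100, so their changes are given as descriptions. The middle one, at 55491383 in pool C, had 6309 and 7524 RNA counts at dox 100 against 362 and 398 at dox 0, and its log2 change of 6.63 ± 0.71 was the largest called rise on the chromosome at dox 100 (edgeR, adjusted p = 1.59e-05). The 2 members within 100 kb of it, both in other pools, had levels of 5.92 and 6.41 at dox 100. The proximal one, at 3761472 in pool A, had 16386 and 19782 counts at dox 100 against 3274 and 3182 at dox 0. Not every riser had been strong without dox. The reporter at 126107200 in pool C had 2693 and 2914 counts at dox 100 against 191 and 189 at dox 0, and its level of −0.56 at dox 0 was below the pool average, with a change of 6.23 ± 0.41 (edgeR, adjusted p = 8.51e-07).

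The strongest reporters without dox mostly left the top 8 at dox 100, though several stayed high. Of the 8 highest at dox 0, 6 were distal, and a single one, at 141628134, was also among the 8 highest at dox 100. In order of their dox 0 level, they ranked 32, 44, 211, 212, 13, 218, 1 and 43 of 645 by level at dox 100. The top level, 5.53 at 137026173 in pool A, came from 5037 and 5790 RNA and 121 and 307 DNA counts. At dox 100 it had 459 and 1538 RNA counts, and its change of −0.52 ± 1.24 did not pass (edgeR, adjusted p = 0.739). At 49071639 in pool C, RNA fell to 120 and 1 counts at dox 100, against 4775 and 4748 at dox 0, a log2 change of −4.73 ± 1.35 (edgeR, adjusted p = 0.00977). Its replicates at dox 100 differ widely, and the adjusted p was 0.0813 without dox 0 replicate 1 and 0.0687 without dox 0 replicate 2. A steadier fall was seen at 134992086 in pool C, with 41 and 78 counts at dox 100 against 5177 and 5794 at dox 0, a change of −4.39 ± 0.40 (edgeR, adjusted p = 5.1e-06).

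Where RNA vanished from both dox 100 libraries, only a bound on the fold can be given, computed as if the 2 libraries had held 3 counts between them, with TMM scaling and DNA taken into account. Over the 249 lower reporters of this kind the bound ranged from at least 1.10-fold to at least 1305-fold lower, with a median of 25.3. The extreme was 125088305 in pool A, with 5904 and 6709 RNA counts at dox 0, 5369 and 5720 at dox 0.01, 1216 and 924 at dox 0.1 and none at dox 100. Next came 133463111 in pool A, at least 477-fold lower, and 116914753 in pool A, at least 406-fold lower. All 3 are distal, as are 3 of the 5 largest called rises.

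**Figure D4:**
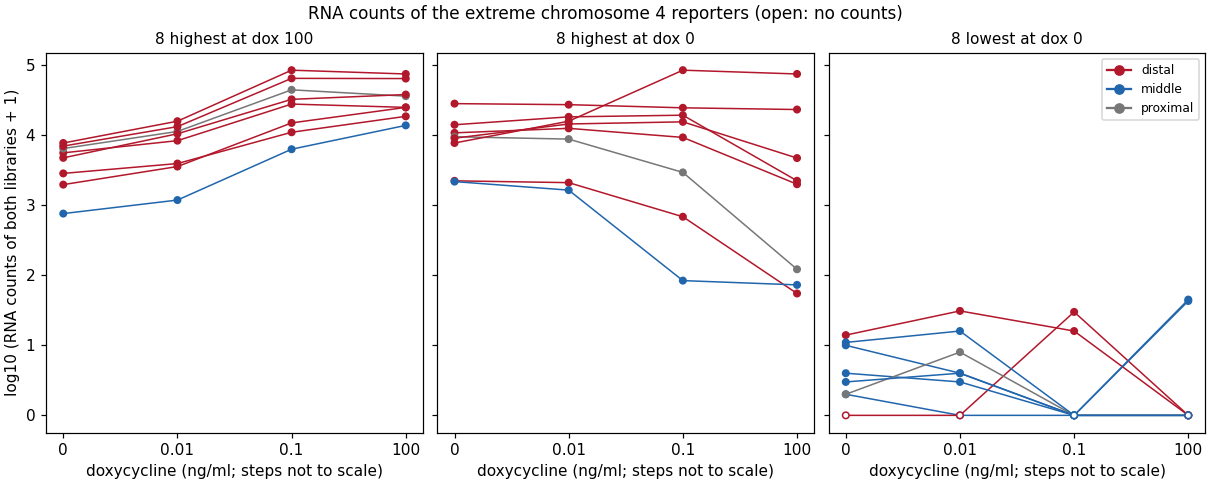
RNA counts summed over both libraries of each dose, as log10 of the sum plus 1, for the 8 highest reporters at dox 100 (left), the 8 highest at dox 0 (centre) and the 8 lowest at dox 0 (right); lines join the doses of 1 reporter and open symbols mark 0 counts. The sets were chosen by these values. The centre set fans out with dose, and the right set never exceeds 44 counts.

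The lowest reporters at dox 0 were near the counting floor from the start. At 76933830 in pool C, RNA was 1 and 0 counts at dox 0 and 0 at every other dose, beside 383 and 320 DNA counts at dox 0, a level of −7.56. Next was the distal insertion at 110876144 in pool C, whose RNA was 0 in both dox 0 libraries, with a level of −7.18. At dox 0.1 it had 29 and 0 RNA counts and was called higher (edgeR, adjusted p = 0.0374), with no fold to give against 0. Then came 78024371 in pool D with 5 and 4 counts beside 853 and 875 DNA counts, at −6.98. At dox 100 it had 42 and 0 counts. Of the 8 lowest, 5 were middle, 2 distal and 1 proximal. On chromosome 4, 152 reporters had RNA in just 1 of the 2 dox 100 libraries, with a median of 67.5 counts there.

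The extremes were also picked in replicate 1 and read in replicate 2, a sister culture of the same pool. Since the chromosome was chosen by its dox 0 values, this describes how alike the replicates are and is no fresh test. The 20 highest at dox 0 by replicate 1 averaged 4.26 there and 3.79 in replicate 2, with 17 distal, 1 middle and 2 proximal. The 20 lowest averaged −5.67 in replicate 1 and −5.19 in replicate 2, with 12 middle, 4 distal and 4 proximal. As a description over the 645 reporters, which share libraries and depth, the levels of both replicates had Pearson correlations of 0.91 at dox 0, 0.91 at dox 0.01, 0.83 at dox 0.1 and 0.72 at dox 100. Levels at dox 0 had a correlation of 0.93 with those at dox 0.01, 0.75 with those at dox 0.1 and 0.49 with those at dox 100.

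Neighbours were alike only in part. Over the 18 pairs of members within 1 kb, levels had a correlation of 0.23 at dox 0 and 0.50 at dox 100. The dox 0 value is pulled down by the widest pair, described below, where 1 reporter had 13 and 0 RNA counts. It therefore does not rank these pairs against those farther apart. Over all 90 pairs within 10 kb, the correlation was 0.44 at dox 0 and 0.59 at dox 100, over the 455 pairs at 10 to 100 kb 0.33 and 0.37, and over the 3007 pairs at 100 kb to 1 Mb 0.24 and 0.11. Pairs share members and, within a pool, libraries, so these are descriptions. For the 68 pairs under 10 kb from different pools, which share no library, the values were 0.42 and 0.59. Of 18 pairs closer than 1 kb, 11 differed by less than 2 in level at dox 0, and the widest difference was 8.32. That widest pair lies 683 bp apart. The insertion at 104826146 in pool D had a level of 2.09 at dox 0, with 137 and 346 RNA counts at dox 100 against 424 and 423 at dox 0. The one at 104826829 in pool C had a level of −6.23, with no RNA at dox 100 against 13 and 0 counts at dox 0, beside 494 and 274 DNA counts at dox 0.

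In 5 pairs the insertion points are 1 bp apart, always with the minus-strand reporter at the lower position. They are listed in different pools in 4 pairs and in pool D for both reporters of the fifth. At 57177518 (pool C) and 57177519 (pool B) both reporters lost RNA from 1 library at dox 100, with 0 and 139 counts and 0 and 79 counts, against 892 and 864 counts and 2293 and 2657 counts at dox 0. At 132071611 (pool A) and 132071612 (pool D) they parted, with 71 and 0 counts and 2131 and 1686 counts at dox 100, against 325 and 311 counts and 1503 and 1620 counts at dox 0. Levels at dox 0 in this pair were 1.44 and 3.60.

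Just inside the DNA minimum were 17135567 in pool D and 44604348 in pool A, each with a lowest DNA count of 10. Just outside were 91334153 and 11023142 in pool C, each with a lowest DNA count of 8. At dox 100 the first had 0 and 0 RNA counts and the second 180 and 114, against 64 and 59 and 151 and 201 at dox 0, while both reporters outside the minimum had 0 RNA counts at dox 100.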

How the data were processed

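Per the file headers, the deposited table holds raw barcode read counts from cDNA (RNA) and genomic DNA with chromosome, position and strand, and no normalization by the authors. The submitters' processing notes name Bowtie2 2.0 and mm9 without their roles. Barcode calling and filtering: not given in the sources used here. Columns cover 64 RNA and DNA libraries (4 pools, 4 doses, 2 replicates, 2 assays); 16 mapping libraries enter only as positions. The number of sample columns left unused was 0. The genome tables at hand are of another build, so gene features and surrounding sequence were not analysed here.

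For all 10785 reporters past 10 DNA counts, edgeR 4.0.16 (R 4.3.3) fitted a quasi-likelihood model per pool in which the assay by dose interaction is the change of RNA over DNA. TMM scaled RNA and DNA libraries separately, and Benjamini-Hochberg adjustment ran within the pool. The SE is the absolute log2 change divided by the square root of F and is unreliable near 0 counts. Tested on simulated data for dox 100 against dox 0, it recovered 41% of log2 changes of −4 and 43.5% of 4, but 7.5% of −2 and 6% of 2. It called 0.0701% of the reporters left unchanged. The simulated counts were drawn from the dox 0 means, with 200 reporters changed at each size, rises and falls in equal number, and 9985 left unchanged. In the data 61.3% of all reporters were called at dox 100, 50.4% as lower. The recovery and false-call rates hold for the simulated setting and may not carry over to the data. Alternatives were DESeq2 1.42.0, other scaling, filters and pseudocounts, RNA with DNA as an offset, and left-out replicates and pools. Replicate numbers pair the libraries because, per the labels' protocols, each numbered culture was divided over the doses. Yet differences between replicates 1 and 2 had correlations between doses of only −0.054 to 0.041 in RNA and −0.051 to 0.046 in DNA, and the fit reported has no replicate block.

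Named reporters are the 8 highest and 8 lowest at dox 0, the 8 highest at dox 100 with RNA in both libraries, per contrast the 5 largest called rises and falls with RNA in both libraries, the extreme windows, pairs 1 bp apart and the edges of the DNA minimum. The 3 largest bounds, the stretch around 141 Mb, the windows at the chromosome ends and the widest pair were chosen after their values were seen. Members, parts and lists were chosen with earlier results of these data known. Python 3.11.15, pandas 2.3.3 and matplotlib 3.10.9 were also used.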

Additional observations from a re-analysis of the deposited data

Results flagged for a closer look

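Of 50 sets of 4 pool values examined, 4 held a pool far from the other 3 by Dixon's criterion. Its nominal rate of about 1 in 20 holds for independent sets of continuous values. These sets share reporters, so how many flags chance gives here is not known. The mean level of distal reporters at dox 0.01 was 1.76 in pool A and 0.99 to 1.08 in pools B, C and D. Among reporters with RNA in both libraries at dox 0.1, the distal minus middle difference was −0.31 in pool C and 0.52 to 0.68 in the other 3 pools. In the middle part, pool C was the only pool with reporters without RNA at the lower doses, at 1.56% at dox 0 and 4.69% at dox 0.01, against 0% in pools A, B and D. These pool C shares are 1 and 3 reporters of 64. With the other 3 pools at 0%, any share above 0% meets the criterion, so nothing is read from these flags.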

How the results depend on the processing

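The distal minus middle difference stayed above 0 under every alternative tried. With narrower parts, the middle as 60 to 90 Mb and the distal part from 120 Mb, it was 2.44 at dox 0, 2.89 at dox 0.01, 3.52 at dox 0.1 and 2.63 at dox 100. Means of 1 Mb blocks gave 2.17 at dox 0.01, a pseudocount of 0.1 gave 2.79 at dox 0.1, and reporters with RNA in both libraries, an alternative added after seeing the data, gave 0.39 at dox 0.1 and 0.53 at dox 100. The cause was not tested. TMM scaling leaves levels as they are, because they are centred per library. Leaving out a replicate or a pool gave 1.35 to 1.69 at dox 0, 1.65 to 1.93 at dox 0.01, 1.89 to 2.33 at dox 0.1 and 1.41 to 1.92 at dox 100.

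For dox 100 against dox 0, 296 lower and 76 higher reporters became 194 lower with a DNA minimum of 100, where 451 members were tested, 124 higher with the DESeq2 Wald test and 45 higher with library totals. For dox 0.1 against dox 0, 189 calls became 124 with DNA as an offset (66 lower), library totals gave 177 lower and 41 higher, and the Wald test gave 125 higher. For dox 0.01, where edgeR called 0, the Wald test called 23 (1 lower, 22 higher, with 359 members given an adjusted p), and DESeq2 size factors 1 higher. Shares of all reporters called were not taken under these alternatives. The median log2 change of all reporters was −1.96 with library totals and −0.80 with TMM at dox 0.1, and −5.15 and −4.12 at dox 100. Leaving out a replicate gave 286 to 440 calls at dox 100 (227 to 375 lower, 59 to 66 higher) and 112 to 211 at dox 0.1 (64 to 138 lower, 48 to 73 higher). With the replicate block there were 293 lower and 75 higher at dox 100, 110 lower and 71 higher at dox 0.1 and 1 higher at dox 0.01; it changed no other count reported by over 1.5 times. No reporter called at dox 0.1 or dox 100 took the opposite call under any of these settings. Of 577 repeats for named reporters, 524 kept the call and 53 kept the direction but passed the threshold no longer.

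The mean share of chromosome 4 reporters without RNA depends on how it is counted. Below 10 RNA counts in both libraries together were 2.09% at dox 0, 3.95% at dox 0.01 and 46.1% at dox 100, and with a DNA minimum of 100 the share at dox 100 was 35.9%. In a single library it was 0.457% to 1.10% at dox 0, 1.62% to 2.35% at dox 0.01, 23.0% to 28.4% at dox 0.1 and 52.3% to 58.8% at dox 100. RNA of 0 counts limits reads and not RNA per cell, and changes near 4 on the log2 scale or less were often missed in simulated data.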
